A study of Mus musculus with 8 samples.

Results

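Chemokines are small secreted proteins that draw leukocytes along a gradient, and chemokine receptors are the G protein-coupled receptors through which the cells read it. The genes described here were every non-control probe on the array whose gene name is Ccl, Cxcl, Cx3cl, Xcl, Ccr, Cxcr, Cx3cr or Xcr followed by a number. That gave 71 probes of 52 genes, out of 56605 non-control probes with 37074 gene names. Relatives with other names (Ackr3, Pf4, Ccl27a and the like) fall outside this pattern and were counted as a separate list of 18, of which 11 were on the array.

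The ligands are named for the spacing of their first cysteines (CC, CXC, CX3C and C). Inflammatory ligands such as Ccl2, which recruits monocytes, or Cxcl1, which recruits neutrophils, are switched on by cytokines and by the transcription factor NF-kB, while Cxcl9, Cxcl10 and Cxcl11 are interferon-inducible and act on Cxcr3 of T cells. Homeostatic ligands such as Cxcl12 are made constantly and place cells within tissues. In the brain the pair best known is neuronal Cx3cl1 (fractalkine) and its receptor Cx3cr1 on microglia.

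The series measured how lead taken up with drinking water changes gene expression in male mice. Control mice drank distilled water, low-dose mice 100 mg/L lead acetate and high-dose mice 1000 mg/L, for 3 weeks in all. Total RNA from small pieces of tissue was hybridised to 8 one-colour arrays, 1 for each group: brain and kidney at control, low and high dose, and liver at control and high dose. Strain, age and the number of mice behind an array are not given in the sources used here, nor whether the tissues of 1 dose came from the same mouse, so dose and mouse cannot be told apart.

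Levels are log2 of the scanner software's processed signal minus the 75th percentile of that array, so 0 is that percentile and 1 unit is 2-fold. Between 53.4% and 67.1% of spots per array were well above background. The number of arrays limits the precision: with 1 array per group, a difference between doses within a tissue has no replicate check and no p-value. The labels fitted the tissues' defining genes, with a median level of 4.86 to 4.95 for 12 neuron genes in brain, 4.50 to 4.70 for 12 kidney tubule genes in kidney, and 9.56 and 9.59 for 11 hepatocyte genes in liver. In such bulk pieces, fewer cells of a type and less RNA per cell cannot be told apart.

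By the brightest probe of each gene, 17 of 52 members (32.7%) were well above background on every brain array, against 60.5% of all gene names. The count was 23 (44.2%) against 55.6% in kidney, and 17 (32.7%) against 51.4% in liver. On all 8 arrays 8 members were well above background: the ligands Ccl5, Ccl6, Ccl9, Ccl25, Cxcl11, Cxcl12 and Cxcl16 and the receptor Cx3cr1. The brighter Cxcl11 probe shares a stretch of at least 16 bases with 16 probes of other names, and whether that sets its level was not tested. The 14 members that were not well above background on any array included 4 of the 5 neutrophil-attracting CXC ligands (Cxcl2, Cxcl3, Cxcl5 and Cxcl15; Cxcl1 was the exception) and both receptors of those ligands, Cxcr1 and Cxcr2. The others of the 14 were Ccl3, Ccl11, Ccl22, Ccl26, Cxcl17, Ccr1, Cxcr5 and Xcr1. The remaining 30 members were well above background on 1 to 7 arrays.

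**Figure D1:**
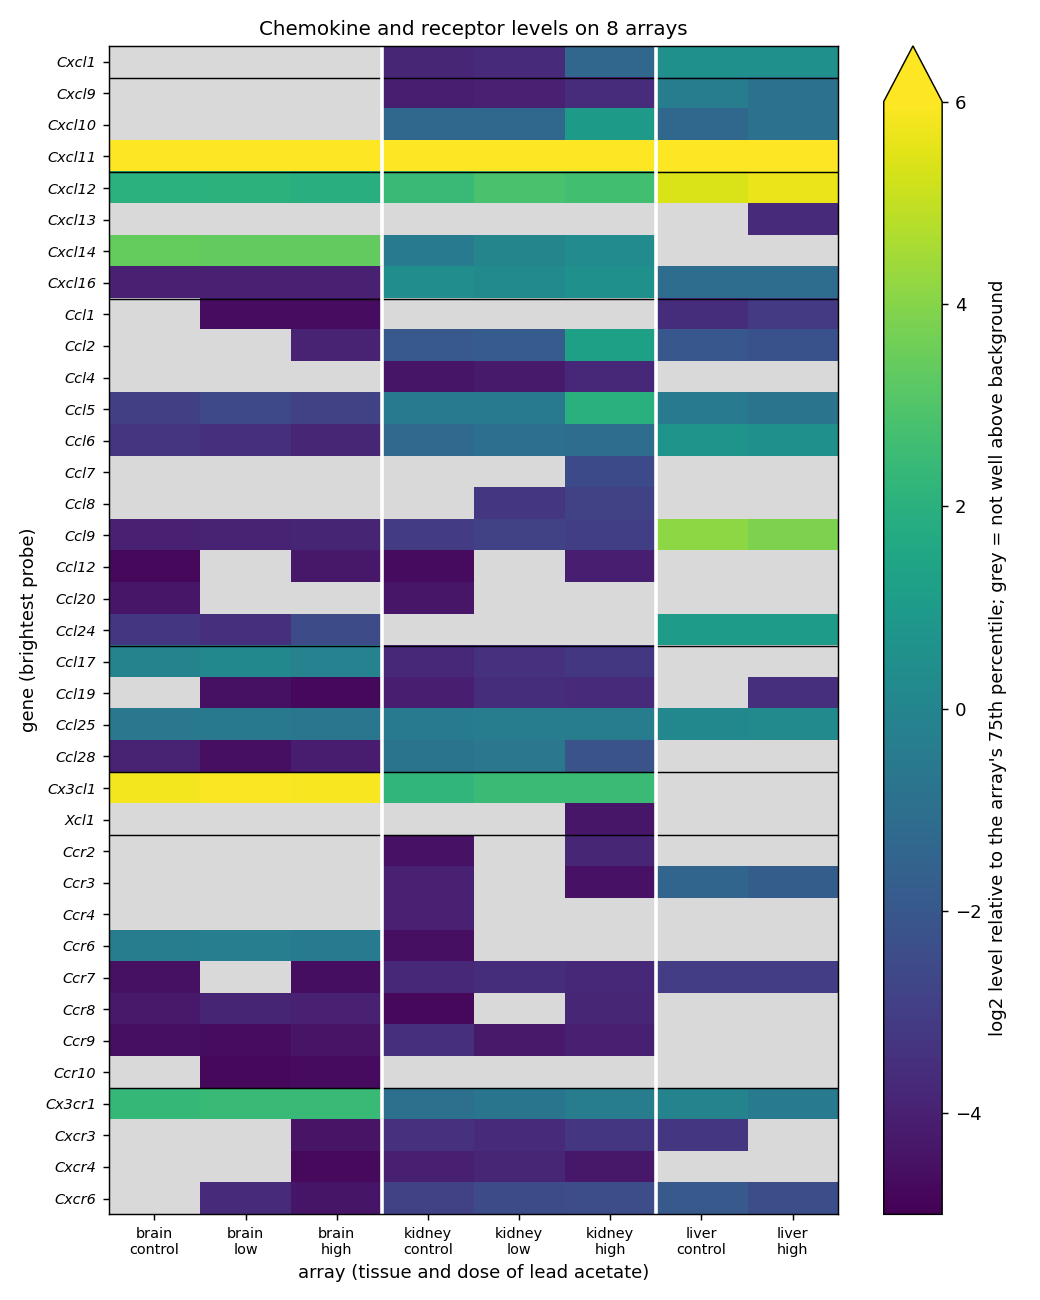
Log2 level relative to the array's 75th percentile of member genes that were well above background on at least 1 array (rows, brightest probe, grouped by class with ligands above receptors) on each of the 8 arrays (columns). Grey cells were not well above background, and the Cxcl11 row (8.87 to 9.40) lies beyond the top of the colour scale. Cx3cl1, Cxcl14, Ccl17, Ccr6 and Cx3cr1 were brightest in brain, Ccl9, Ccl24, Cxcl9 and Cxcl12 in liver, and Ccl2, Ccl5, Ccl7, Cxcl1 and Cxcl10 were brighter on the high-dose kidney array than on the other kidney arrays.

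Tissue was compared in 1 limma fit over all 8 arrays with tissue and dose as factors and 3 residual degrees of freedom, on probes well above background on at least 2 arrays. Arrays of a tissue at different doses stand in for replicates there, so the standard errors (SE) hold whatever the doses did beyond a shift common to the tissues. Of 43 member probes tested, 37 differed between brain and kidney at a Benjamini-Hochberg adjusted p under 0.05, 11 being higher in brain and 26 in kidney. Over all 39620 probes tested, 36.2% were higher in brain and 41.1% in kidney. Between kidney and liver 24 differed, with 11 higher in kidney (26.4% of all probes) and 13 in liver (36.9%). Between brain and liver 34 differed, with 12 higher in brain (35.7% of all probes) and 22 in liver (44.1%). Differences of at least 4-fold numbered 19, 11 and 21 member probes, or 44.2%, 25.6% and 48.8%, against 27.0%, 14.5% and 30.4% of all probes. Many of these members passed the filter through 1 tissue and were dim in the other, so these shares are no result about the members. Of the 43, 18, 19 and 14 were well above background on every array of both tissues compared, and of those 10, 5 and 9 differed by at least 4-fold, where 16.5%, 9.64% and 19.7% of all such probes did.

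**Figure D2:**
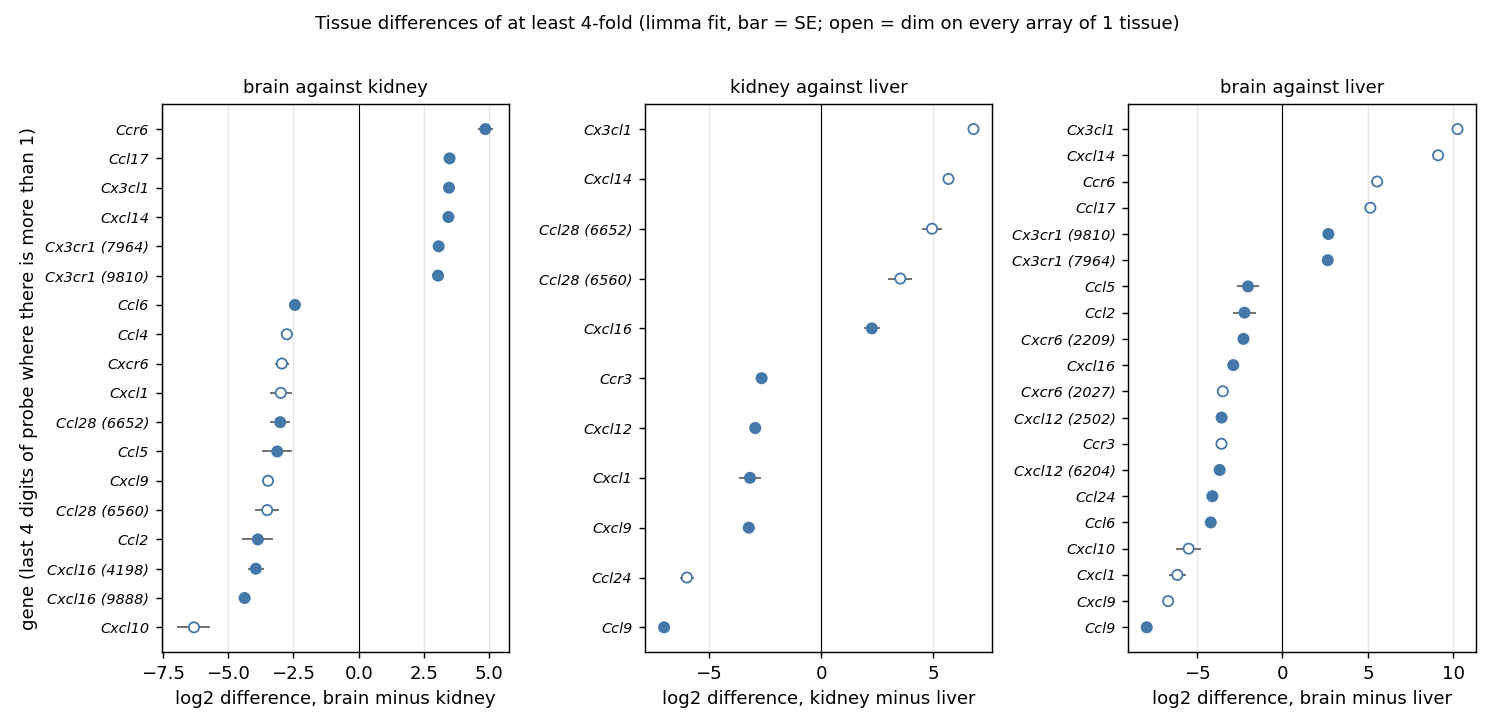
Log2 difference between tissues with its standard error from the limma fit (horizontal axis) for each member probe (rows) that differed by at least 4-fold with an adjusted p under 0.05 and was well above background on every array of 1 of the tissues, in 3 panels. Open points had 1 tissue with no array well above background, so their plotted value depends on dim signal and the bound in the text is the measured part. The longest distances from 0 are those of Cx3cl1 and Cxcl14, bright in brain, and of Ccl9, bright in liver.

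By its brighter probe, Cx3cl1, the membrane-bound ligand of neurons, stood at 5.80, 5.91 and 5.89 on the control, low-dose and high-dose brain arrays. With that probe it stood at 2.23, 2.50 and 2.51 on the kidney arrays and was not well above background in liver. The 3 brain values lay within 0.12 of each other and above all kidney values. The difference between brain and kidney was 3.45 (SE 0.11, adjusted p = 3.53e-07), and brain was at least 969-fold and kidney at least 88.4-fold brighter than liver. A second, dimmer Cx3cl1 probe gave a difference of 1.28 (SE 0.32, adjusted p = 0.00911) between brain and kidney. That probe was well above background on the high-dose liver array, at -3.92. It stood at -2.90, -3.00 and -2.97 in brain and at -3.80 and -4.19 in control and high-dose kidney, and was dim in low-dose kidney. The bounds against liver are thus those of the brighter probe alone. Its receptor Cx3cr1, which microglia and other macrophages carry, was at 2.33, 2.41 and 2.40 in brain. The kidney arrays gave -0.96, -0.71 and -0.36 and the liver arrays -0.08 and -0.47. Brain exceeded kidney by 3.06 (SE 0.17, adjusted p = 5.15e-06) and liver by 2.65 (SE 0.20, adjusted p = 2.36e-05), and the other Cx3cr1 probe gave 3.03 and 2.69. The ranges of brain and of the other tissues did not overlap for ligand or receptor.

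Of the homeostatic CXC ligands, Cxcl14, a constitutive ligand of epithelia and brain, was at 3.41, 3.34 and 3.37 in brain and at -0.49, 0.01 and 0.30 in kidney, and was not well above background in liver. Brain exceeded kidney by 3.43 (SE 0.16, adjusted p = 2.43e-06) and was at least 172-fold brighter than liver. Kidney was at least 16-fold brighter than liver. Cxcl12, the ligand of Cxcr4 that holds blood progenitors and lymphocytes in place, ran the other way. Its levels were 5.38 and 5.66 in liver, below which came kidney (2.44, 2.83 and 2.67) and brain (2.04, 2.09 and 1.95). Liver exceeded kidney by 2.93 on the log2 scale (kidney minus liver -2.93, SE 0.10, adjusted p = 1.18e-06) and brain by 3.56 (brain minus liver -3.56, SE 0.10, adjusted p = 1.79e-07). A dimmer Cxcl12 probe gave -1.75 and -3.67 for the same comparisons.

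Cxcl16, a transmembrane ligand of Cxcr6, was at 0.38, 0.22 and 0.51 in kidney, -1.08 on both liver arrays, and -3.98, -3.99 and -4.0 in brain. Kidney was the brightest tissue, with brain minus kidney at -4.36 (SE 0.10, adjusted p = 8.71e-08) and kidney minus liver at 1.49 (SE 0.12, adjusted p = 5.89e-05). Its receptor Cxcr6, found on T and NK cells, was -2.84, -2.47 and -2.42 in kidney and -1.94 and -2.35 in liver. In brain it was well above background on the low-dose (-3.65) and high-dose (-4.39) arrays. Brain minus liver was -2.28 (SE 0.28, adjusted p = 0.000282), reading dim signal on the control brain array, while kidney minus liver was -0.60 (SE 0.28, adjusted p = 0.0989).

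Among the CC ligands, Ccl9, a ligand of Ccr1, had its highest levels in liver. It stood at 4.14 and 3.84 in liver, -3.11, -2.86 and -2.94 in kidney, and -3.99, -3.92 and -3.84 in brain. Kidney minus liver was -6.99 (SE 0.15, adjusted p = 1.89e-07) and brain minus liver -7.94 (SE 0.15, adjusted p = 3.95e-08). Ccl6, its close relative, was at 0.68 and 0.52 in liver, -1.25, -0.98 and -1.09 in kidney and -3.33, -3.47 and -3.82 in brain, so that the 3 tissues did not overlap. Brain minus liver was -4.19 (SE 0.16, adjusted p = 8.46e-07) and brain minus kidney -2.44 (SE 0.14, adjusted p = 5.50e-06). Ccl24, an eosinophil attractant, was at 1.09 and 1.07 in liver and -3.26, -3.49 and -2.46 in brain, a difference of -4.10 for brain minus liver (SE 0.32, adjusted p = 2.89e-05). It was not well above background in kidney, and liver was at least 56.1-fold brighter. The Ccl24 receptor Ccr3, the main receptor of eosinophils, had its higher levels in the same tissue, with -1.42 and -1.74 in liver against -3.99 on the control kidney array and -4.48 on the high-dose one. It was not well above background on the low-dose kidney array or in brain, and kidney minus liver was -2.65 (SE 0.22, adjusted p = 7.53e-05), reading dim signal on 1 of the 3 kidney arrays.

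Ccl17, a ligand of Ccr4, was at -0.07, 0.15 and -0.11 in brain and -3.78, -3.44 and -3.23 in kidney, a difference of 3.48 (SE 0.18, adjusted p = 3.23e-06). It was not well above background in liver, and brain was at least 16.5-fold brighter. Ccr6, the receptor of Ccl20 on lymphocytes and dendritic cells, was at -0.38, -0.28 and -0.42 in brain. In kidney it was well above background on the control array alone, at -4.54, and in liver on neither array. The fitted difference between brain and kidney, 4.84 (SE 0.29, adjusted p = 7.93e-06), therefore reads dim signal on 2 of the 3 kidney arrays. Brain was at least 12.9-fold brighter than liver. Ccl4, an inflammatory attractant of monocytes and T cells, was well above background in kidney alone, at -4.38, -4.22 and -3.79, which is at least 1.94-fold above brain. Its dim liver readings, -4.69 and -4.21, overlapped those of kidney. The faintest probes well above background stood at -3.97 and -4.14 on the control and high-dose liver arrays. The other Ccl4 probe was well above background on the high-dose kidney array alone, with a bound of 1.21-fold above brain.

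Cxcl9, Cxcl1 and Cxcl10 were dim in brain and measured in kidney and liver. Cxcl9 was not well above background in brain, was at -4.06, -3.99 and -3.59 in kidney and at -0.37 and -0.88 in liver. Kidney minus liver was -3.22 (SE 0.28, adjusted p = 9.86e-05), and liver was at least 22.1-fold brighter than brain. Cxcl1 was not well above background in brain either and was higher in liver than in kidney (kidney minus liver -3.17, SE 0.50, adjusted p = 0.00166). That value ran from -4.0 without the high-dose liver array to -2.33 without the control liver array, and was -2.54 without the control and -3.87 without the high-dose kidney array. Cxcl10 was at least 23.3-fold brighter in kidney and at least 16.3-fold in liver than in brain. Without the high-dose kidney array the bound for kidney was 13.6-fold. Ccl28, a mucosal ligand, was at least 7.19-fold brighter in kidney than in liver, where it was not well above background, and brain minus kidney was -3.00 (SE 0.38, adjusted p = 0.000346).

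Ccl2 and Ccl5, the T cell attractant RANTES, were also lower in brain than in kidney, by -3.86 (SE 0.59, adjusted p = 0.000922) and -3.11 (SE 0.57, adjusted p = 0.00223). Without the high-dose kidney array the values were -3.02 and -2.22, and without the control kidney array Ccl2 gave -4.46. Ccl2 was well above background on 1 of the 3 brain arrays, so its differences from brain read dim signal on the other brain arrays. Their differences between brain and liver, -2.22 (SE 0.69, adjusted p = 0.0229) and -2.01 (SE 0.67, adjusted p = 0.0290), were not stable. The adjusted p for Ccl2 was 0.0804 without the control brain, 0.0953 without the high-dose brain and 0.197 without the control liver array, and for Ccl5 it was 0.0793, 0.139 and 0.221 in the same order. With the control liver array left out, Ccl2 gave -1.02 and Ccl5 -1.23, and with the high-dose liver array left out they gave -3.42 and -2.79.

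Within a tissue, a member probe counted as higher or lower than control when both spots were well above background and not saturated, the log2 difference was at least 1 in size and it was more than 3 times the array error. The array error joins the relative errors that the scanner software reports for both spots, about 0.21 for the median probe, and does not hold any spread between animals or tissue pieces. The kidney at the high dose had the most member probes past this rule. Of 35 member probes measured on both arrays, 4 were higher (0.928% of all 31998 measured probes were) and 2 lower (0.488% of all), together 17.1% of the members measured. The higher ones were 4 inflammatory ligands, Ccl2, Ccl5, Cxcl1 and Cxcl10, and both lower probes were those of Ccl28. The median difference over the 35 was 0.23, against -0.03 over all measured probes.

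**Figure D3:**
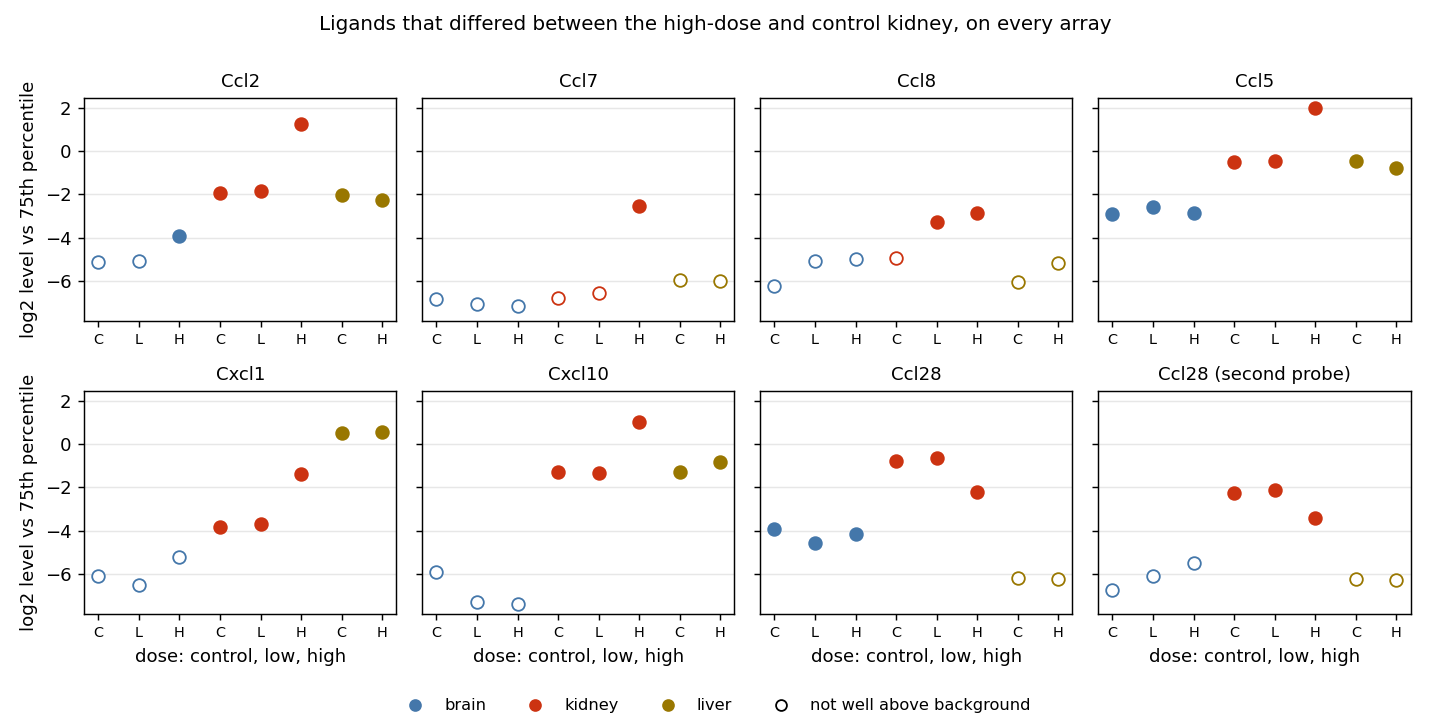
Log2 level relative to the array's 75th percentile (vertical axis) on each of the 8 arrays (horizontal axis, control C, low L and high H in brain, kidney and liver) for the probes that differed between high-dose and control kidney. Open circles were not well above background. In the panels of Ccl2, Ccl5, Cxcl1 and Cxcl10 the high-dose kidney lies apart from control and low dose, which lie within 0.13 of each other, and in the Ccl28 panels it lies below them.

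Ccl2, the monocyte attractant MCP-1, was at -1.94 in control, -1.82 in low-dose and 1.25 in high-dose kidney. In liver it was at -2.03 and -2.24. In brain it was well above background on the high-dose array alone, at -3.90. The high-dose kidney was thus the highest of the 8 arrays, 3.18 above its control or 9.09-fold (array error 0.21). Ccl5 was at -0.50, -0.47 and 1.97 in kidney, -2.91, -2.58 and -2.84 in brain, and -0.47 and -0.76 in liver. Again the high-dose kidney was the highest of all arrays, 2.47 above control or 5.55-fold (array error 0.20), while the control and low-dose kidney differed by 0.04.

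Cxcl1, a neutrophil attractant, was at -3.81, -3.69 and -1.37 in kidney and at 0.53 and 0.54 in liver. The high-dose kidney was 2.45 above control, 5.46-fold (array error 0.27), and remained below both liver arrays. Cxcl10, the interferon-inducible protein IP-10, was at -1.31, -1.34 and 1.0 in kidney and -1.29 and -0.83 in liver. The difference in the high-dose kidney was 2.31, 4.95-fold (array error 0.21), and that array was the highest of the 8. The second Cxcl10 probe was not well above background on any array.

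Ccl7 and Ccl8, relatives of Ccl2 that act on monocytes and other leukocytes, were not well above background in the control kidney, so their differences are lower bounds. Ccl7 was at -2.54 in the high-dose kidney, where alone it was well above background, at least 4.94-fold above control. Ccl8 was at -3.27 in the low-dose and -2.86 in the high-dose kidney, at least 2.98-fold and 3.96-fold above control, and was not well above background in brain or liver. Among all probes above background on the high-dose kidney array alone of the pair, 26.8% had a bound of at least 2-fold, and at the low dose 32.7%. With another background correction, the normexp model followed by quantile normalization, the log2 bound of Ccl7 was 1.02 in place of 2.30. Those of Ccl8 were 0.48 in place of 1.57 at the low dose and 0.70 in place of 1.99 at the high dose.

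Ccl28, which draws antibody-secreting cells to mucosal epithelia through Ccr10, moved the opposite way. Its brighter probe was at -0.77 in control, -0.65 in low-dose and -2.20 in high-dose kidney, a difference of -1.43 (array error 0.21), and the dimmer one at -2.24, -2.13 and -3.41, a difference of -1.17 (array error 0.24). Both probes thus placed control and low dose together and the high dose lower. In brain the brighter probe was at -3.90, -4.56 and -4.16. With normexp the dimmer probe's difference was -0.69, which is short of the 2-fold size, and Cxcl1's was 1.42 in place of 2.45.

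**Figure D4:**
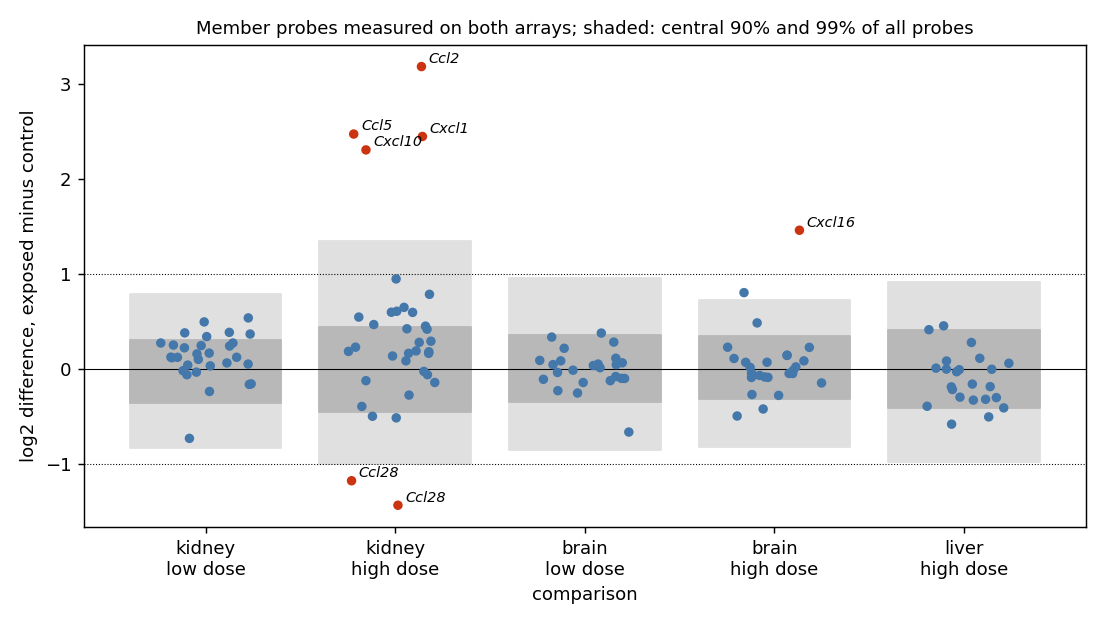
Log2 difference from the tissue's control (vertical axis) of every member probe measured on both arrays, in the 5 comparisons (horizontal axis). Points past the size rule are red and named, the others blue. Dark and light bands hold the central 90% and 99% of all measured probes, and dotted lines mark 2-fold. In the high-dose kidney 4 ligands lie between 2.31 and 3.18 and both Ccl28 probes lie below the light band, while elsewhere 1 probe of Cxcl16 is past the rule.

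The other members measured in the high-dose kidney ranged from -0.51 (Ccr9) to 0.95 (Ccr8). No receptor probe passed the rule among the 5 CC receptor probes and the 6 of CXC, CX3C and C receptors that were measured. Ccr2, the receptor of Ccl2 and Ccl7 on monocytes, differed by 0.65 (array error 0.37) and Cx3cr1 by 0.60 (array error 0.21). Cxcr3, the receptor of Cxcl10, differed by 0.19 (array error 0.28). Cxcr2, the receptor of Cxcl1, was not well above background in kidney. Of the homeostatic ligands, Cxcl14 differed by 0.79 (array error 0.20), which passes at 1.5-fold but not at 2-fold, and Cxcl12 and Cxcl16 by 0.23 and 0.14.

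The ligands that were higher lie in gene clusters with others that were not. On chromosome 11 (mm9, probe positions), Ccl2, Ccl7, Ccl11, Ccl12, Ccl8 and Ccl1 follow each other within 139.86 kb, chr11:81850650-81990510. There Ccl2 was 9.09-fold higher and Ccl7 and Ccl8 had the bounds above. Ccl12 differed by 0.61 (array error 0.40), and Ccl11 and Ccl1 were not well above background. About Ccl5, chr11:83339296-83478111, Ccl9 and Ccl6 both differed by 0.17 and Ccl4 by 0.60, and Ccl3 was not well above background. On chromosome 5, Cxcl1 was the only one of the 5 neighbours Cxcl5, Cxcl3, Cxcl15, Cxcl1 and Cxcl2 (chr5:91190490-91334593) to be measured. Of the interferon-inducible trio at chr5:92752191-92788626, Cxcl10 differed by 2.31, Cxcl9 by 0.47 and Cxcl11 by -0.12. That Cxcl11 value is from the brighter probe, which shares a stretch of at least 16 bases with 16 probes of other names. Whether shared sequence sets it was not tested.

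Promoters were searched because several inflammatory ligands were higher on the high-dose kidney array than on its control, with 1 array per group. Ccl28 was lower there. RefSeq (GRCm38.p6) gave windows from 250 bases before to 50 bases after the start for 37 of the 52 genes, 39 promoters in all, with none for Ccl2, Ccl5 and Ccl7. The NF-kB consensus was found in 10 of the 39, against 8.46% of all 32851 promoters of the same length, searching both strands. The 10 were those of Ccl1, Ccl9, Ccl20, Cxcl1, Cxcl2, Cxcl3, Cxcl10, Ccr1, Ccr3 and Ccr6. Of these genes only Cxcl1 and Cxcl10 were higher in the high-dose kidney, so the share is no result about the higher ligands. The core of an interferon-stimulated element, GAAA followed after any 2 bases by GAAA, was in 3 (Ccl19, Cxcl10 and Cxcl14), against 3.44%, and TATAAA in 11, against 13.6%. Ccl8 and Ccl28, which also differed in the high-dose kidney, had windows with neither an NF-kB match nor the interferon element. A match is a description of letters in the window, not a bound site. The 250 bases before the start are shown for the 2 higher ligands that had a window with a match, Cxcl1 and Cxcl10, and for Cxcl2, a neighbour of Cxcl1 that was not well above background on any array. They lie at chr5:90890995-90891244 (Cxcl1, + strand), chr5:90903649-90903898 (Cxcl2, + strand) and chr5:92348890-92349139 (Cxcl10, - strand), 5′ to 3′, with capitals marking matches to the NF-kB consensus on either strand and to the interferon element.
Cxcl1: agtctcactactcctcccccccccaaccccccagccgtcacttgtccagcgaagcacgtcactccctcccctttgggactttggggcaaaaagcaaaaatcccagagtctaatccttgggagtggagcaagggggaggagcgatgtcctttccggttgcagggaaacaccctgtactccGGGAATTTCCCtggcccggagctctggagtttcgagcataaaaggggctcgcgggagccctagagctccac
Cxcl2: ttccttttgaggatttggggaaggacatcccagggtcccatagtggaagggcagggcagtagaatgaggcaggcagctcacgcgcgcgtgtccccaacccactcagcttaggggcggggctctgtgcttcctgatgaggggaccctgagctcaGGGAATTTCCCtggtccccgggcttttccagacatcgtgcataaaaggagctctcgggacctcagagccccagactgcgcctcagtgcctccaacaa
Cxcl10: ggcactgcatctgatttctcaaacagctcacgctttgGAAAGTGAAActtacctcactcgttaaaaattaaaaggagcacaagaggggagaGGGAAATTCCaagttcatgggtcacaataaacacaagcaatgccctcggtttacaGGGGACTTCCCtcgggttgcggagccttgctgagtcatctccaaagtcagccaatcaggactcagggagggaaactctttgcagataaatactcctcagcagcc
The stretch GGGAATTTCCC occurs in both Cxcl1 and Cxcl2, 71 and 97 bases before the start. It holds overlapping matches on the 2 strands, so each gene has 2 matches in 1 place. Cxcl10 has GGGAAATTCC 159 bases and GGGGACTTCCC 104 bases before the start, the latter with overlapping matches, and GAAAGTGAAA 213 bases before it.

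Pathway genes around the chemokines were counted from lists. In the high-dose kidney, 1 of 20 measured cytokines and NF-kB factors was higher, the receptor Tlr2 of bacterial lipoproteins (1.13, array error 0.21), and none was lower. Their median difference was 0.18, and Il1a, Il6, Il17a, Ifng, Csf2 and Csf3 were not well above background on any array. Of 24 measured genes that signal from chemokine receptors and 16 adhesion molecules of leukocyte entry, none passed in either direction, with medians of 0.02 and 0.03. Nor did any of 17 interferon-gamma response genes (median -0.05) or of 8 chemokine relatives outside the name pattern (median -0.04). Of 7 measured acute phase genes, Saa1 (1.86) and Lcn2 (1.62), an iron-sequestering protein, were higher and the haemoglobin binder Hp was lower (-1.02). Saa2 and Saa3 were at least 30.0-fold and 20.3-fold above control, and since Saa1 and Saa2 are near-identical copies their probes may share signal.

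Few markers of the cells that make or follow chemokines passed the rule. Of 15 measured macrophage markers, 1 was higher in the high-dose kidney, the lipid receptor Trem2 (1.77), which was higher at the low dose too (1.54). Their median difference was 0.47, 11 of 15 lay above 0, and Cd163 was at least 2.66-fold below control. A list's summed level is here the log2 of the sum of its genes' linear levels, so its brightest genes weigh most. For this list it was 6.10, 6.08 and 6.05 on the control, low-dose and high-dose kidney arrays. Of 7 measured neutrophil markers Lcn2 alone was higher and the median was -0.22, while Mpo was at least 2.61-fold below control. Ngp, Ltf and Mmp9 were not well above background on any array (summed levels of the list 6.48, 6.40 and 6.34). None of 13 T cell markers passed, with a median of 0.13 (summed levels 3.46, 3.43 and 3.46), and Cd3g and Cd8a were not well above background on any array.

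Lists of cells other than kidney tubules moved in the same comparison as the ligands. All 8 measured spermatid genes were higher in the high-dose kidney (median 2.56), with summed levels of 1.43 in control, 0.31 in low-dose and 4.35 in high-dose kidney, Odf1 and Tssk2 being above background on no array. Of urothelium genes 5 of 6 were higher and 4 more had bounds, with summed levels of -0.08, 1.73 and 1.90, Upk3b being above background on no array. At the low dose 6 of 6 were higher, where no chemokine probe passed the size rule and Ccl8 had the bound given above. Of 8 measured hepatocyte genes 3 were higher, the protease inhibitor Serpina1a (3.28), Ahsg (1.38) and Alb (1.22), and the lipoprotein gene Apob was lower (-1.53), with summed levels of 7.88, 7.71 and 7.50. Of 7 adrenal genes 3 were lower, with summed levels of 2.54, 0.71 and 0.69. Of 12 adipocyte genes 1 was lower, the uncoupling protein Ucp1 (-1.42), 10 of 12 lay below 0 and the median was -0.62, with summed levels of 6.42, 6.31 and 6.17. Of 8 measured B and plasma cell genes 1 was lower, the plasma cell gene Mzb1 (-1.31). Their median was -0.09, the summed levels were 1.08, 1.06 and 0.96, and Blk, Fcrla and Tnfrsf17 were above background on no array. Mzb1 was also at least 2.63-fold below control in the high-dose liver, where Ccl28 was not well above background. The part of these lists in the chemokine differences was not tested.

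**Figure D5:**
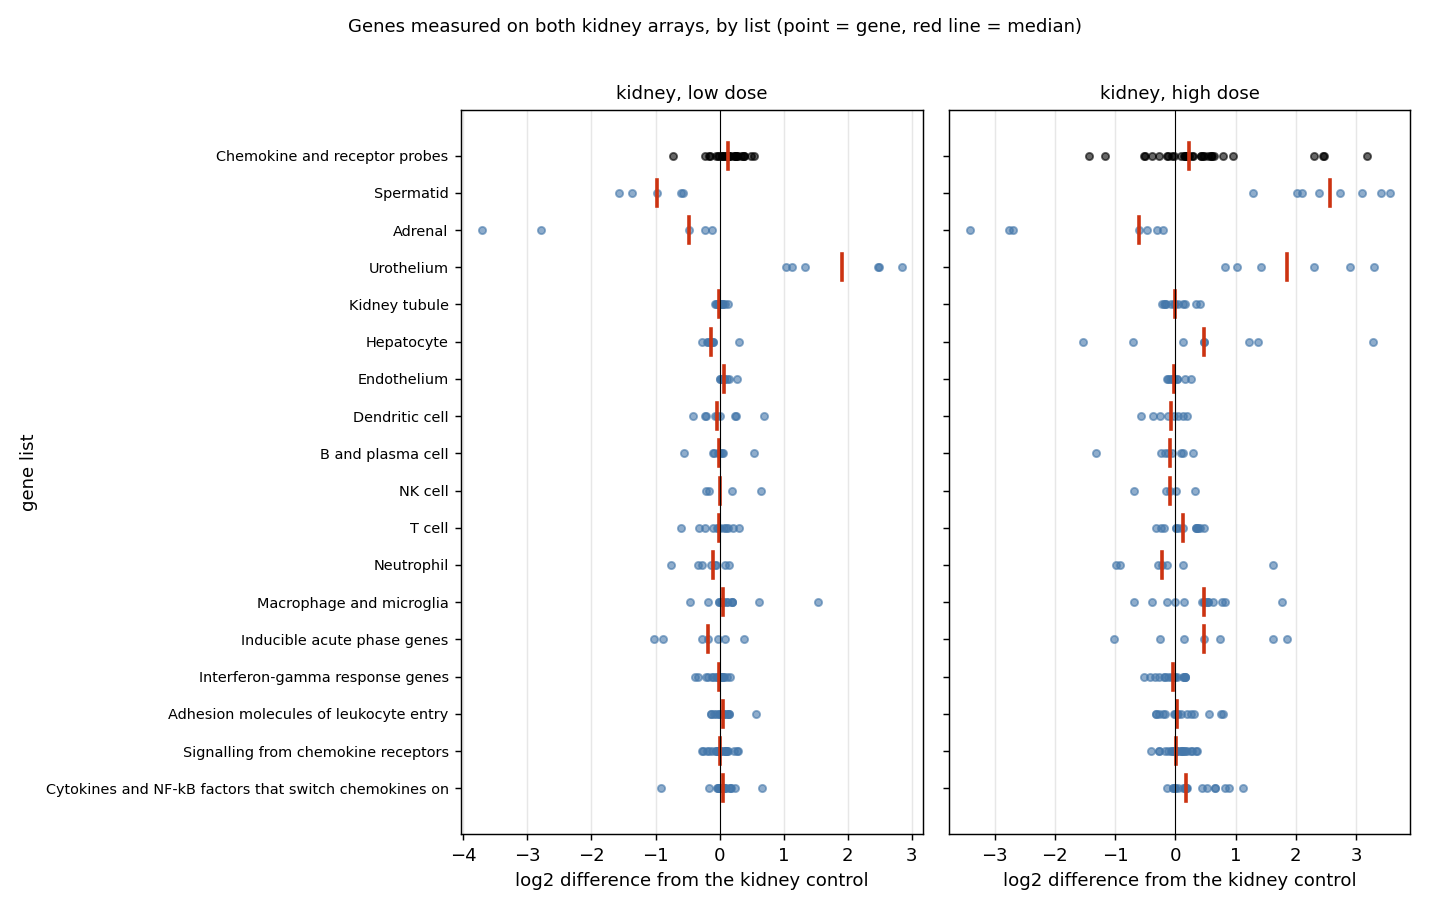
Log2 difference from the control kidney (horizontal axis) of each gene measured on both arrays, by list (rows), for the low dose (left) and the high dose (right). Red lines are medians, and the top row holds the chemokine and receptor probes. The chemokine medians are 0.13 and 0.23, the spermatid median is 2.56 at the high dose, and the urothelium row lies above 0 at both doses.

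No member had a bound of 2-fold or more below control in any of the 5 comparisons. Over all probes well above background on the control array alone, 5.63% had one in the low-dose and 11.4% in the high-dose kidney, 23.5% and 33.8% in brain, and 17.5% in liver.

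In the low-dose kidney no member passed the rule among 30 measured, against 0.223% of all probes higher and 0.252% lower. The values ran from -0.73 (Ccr9) to 0.54 (Ccl19), and the only bound of 2-fold or more was that of Ccl8. Control and low-dose levels of Ccl2, Ccl5, Cxcl1 and Cxcl10 differed by 0.13 or less.

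In brain no member passed at the low dose (24 measured, 0.447% of all probes higher and 0.294% lower), and Cxcr6 had a bound of at least 2.07-fold, where 8.47% of probes above background on the low-dose array alone reached 2-fold. The other Cxcr6 probe was not well above background on any brain array. At the high dose 1 of 26 was higher (0.192% of all probes) and none lower (0.247% of all). This was 1 probe of Cxcl16, at -4.23, -4.18 and -2.77 on the control, low-dose and high-dose brain arrays, a difference of 1.46 (array error 0.28). The other Cxcl16 probe stood at -3.98, -3.99 and -4.0, a difference of -0.01, so the 2 probes disagreed, and with normexp the first gave 0.72. Ccl2 had a bound of at least 2.05-fold in the high-dose brain, where 7.37% of such probes reached 2-fold, and with normexp its log2 bound was 0.36 in place of 1.03. On that array spermatid genes had a summed level of 3.43, against -0.53 in control brain, and 10 of 12 choroid plexus genes were lower. Their part in these values was not tested.

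In liver no member passed at the high dose among 23 measured, against 0.393% of all probes higher and 0.457% lower, and no bound reached 2-fold (10.3% of probes above background on the high-dose array alone did). The median difference was -0.16, against -0.01 over all probes, and 8 of 23 lay above 0. The values ran from -0.58 (the dimmer Cx3cr1 probe) to 0.46 (Cxcl10). Cxcl9, also interferon-inducible, differed by -0.50.

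Over tissues, the same limma fit found no member and no other probe among 39620 at an adjusted p under 0.05 for either dose. Without adjustment, 4 members were under 0.05 at the low dose (Ccl8, Ccl19, Ccl20 and 1 probe of Cxcl12), against 1004 probes or 2.53% of all. At the high dose there were 6 (Ccl4, Ccl8, Ccl20, Ccr8, Cxcl1 and Cxcl14), against 2259 probes or 5.70%. Ccl8 had the smallest unadjusted p of the 6 in this limma fit, with a difference of 1.39 (SE 0.28, unadjusted p = 0.00209, adjusted p = 0.792). It entered the fit through the exposed kidney arrays alone, so that value reads dim signal in brain, liver and the control kidney. Ccl20 entered through the control brain and control kidney arrays alone, so its differences read dim signal on every exposed array. These counts are therefore no result about the members. Ccl2 and Ccl5, past the size rule in the high-dose kidney, differed by -0.21 and -0.29 in the high-dose liver. Whether the tissues differed in this was not tested.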

How the data were processed

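The 8 one-colour arrays (Agilent design 074809) shared 1 slide, and 50 ng of total RNA was labelled with Cy3 for each, as the labels' protocols say. Linear spot intensity, with background subtracted and detrended, was read from the deposited scanner output, per the file headers. The submitters' processing notes name Agilent Feature Extraction, version 12.0.3.1. Their other columns used are 0 or 1 flags and error estimates, which per the file headers come from the scanner software. The deposited value table is intensity as well: dividing an array's processed signal by its 75th percentile gives the same values, which are linear and uncentred. The medians of its columns were 0.112, 0.113 and 0.114 (brain), 0.0940, 0.0905 and 0.0936 (kidney), and 0.0915 and 0.0918 (liver).

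Control, non-uniform and outlier spots were left out, spots of a probe were averaged, log2 was taken and the 75th percentile over non-control spots subtracted. Genes were named as in the files, and positions are those of the files (mm9). A gene was described by its probe of highest mean level. Results of 1 member are not reported here. Members and lists were chosen with earlier results of these data known. Any member may be named, with values on every array for those past the size rule, with a bound of 2-fold, or differing 4-fold between tissues, and up to 4 genes of each list. For a bound, the bright level was compared with the dim probe itself or, if higher, with the faintest probe of its array that was well above background. Tissues and doses were tested with limma 3.58.1 in R 4.3.3 (eBayes with an intensity trend). P-values there measure the spread between arrays of different doses. Python 3.11.15, numpy 2.4.6, pandas 2.3.3 and matplotlib 3.10.9 did the rest. The size rule and the fit were tested on simulated data. Alternatives were normexp (offset 50) with quantile normalization, median scaling, quantile normalization, the value table, other filters on dim probes, a 1.5-fold size, no intensity trend, no dose term and leaving out each array.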

Additional observations from a re-analysis of the deposited data

How the results depend on the processing

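No paired analysis was possible because each group holds 1 sample, and whether the tissues of a dose share a mouse is not given in the sources used here. The comparison of tissues has dose as a factor; without it, 37, 24 and 35 member probes differed between brain and kidney, kidney and liver, and brain and liver, in place of 37, 24 and 34. No result changed direction under the alternatives run. In the low-dose kidney, dropping the filter on dim probes added Ccl8 (1 probe past the size rule in place of 0). In the high-dose kidney, requiring signal on all 8 arrays left 1 probe (Ccl5) of 6, since the others are dim in a tissue. In the high-dose brain the count was 0 with normexp and 2 at 1.5-fold, which adds Ccl24 (0.81). Tested on probes above background on all 8 arrays, 12, 8 and 12 of 12 member probes differed between brain and kidney, kidney and liver, and brain and liver. Most probes of any kind differed between tissues: 30600, 25091 and 31608 of all 39620 in the main fit, in the same order. Shares over all probes under the alternatives are not given here, so the member counts are no result about the members. With all non-control probes tested, 52 of 71 differed between brain and liver. Member probes outside the 43 of the main fit were well above background on fewer than 2 arrays, so that count reads dim signal. Leaving out each array in turn gave 33 to 36, 24 to 26 and 28 to 35 called member probes in those comparisons, and 0 to 0 for either dose over tissues. The call of Ccl2 between brain and liver was also lost with normexp (adjusted p = 0.110) and without an intensity trend (adjusted p = 0.0519), and that of Ccl5 without the trend (adjusted p = 0.0636). The cause was not tested. For the 14 of 52 genes that were not well above background on any array, absent expression and expression under the array's background cannot be told apart. The bounds between tissues without each array, and the 4-fold counts over probes above background in both tissues, were chosen after seeing the data.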

Other observations

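Both Cxcl11 probes were bright on every array, unlike Cxcl9 and Cxcl10, which were not well above background in brain. The brighter one stood between 8.87 and 9.40, a range of 0.54 over brain, kidney and liver, and the other between 2.30 and 2.78. The sequence of the brighter probe shares a stretch of at least 16 bases with 16 probes of other names on the same strand, most often CTACACAGAGAAACCC, which 11 of them hold. Those 16 probes had a median level of 4.68. Whether shared sequence sets the level was not tested.

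Ccl20, the ligand of Ccr6, was well above background on the control brain array (-4.35) and the control kidney array (-4.33) and on no other array. Its bound in the high-dose kidney was 1.36-fold below control, which is short of 2-fold. Ccr4 was well above background on the control kidney array alone (-3.98), and Ccl7 and Xcl1 on the high-dose kidney array alone (-2.54 and -4.35).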
